A study of Mus musculus with 35 samples.

Results

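Respiratory chain subunits were followed by complex and by genome in 35 single mouse macrophages. The members were all genes whose symbols matched 1 naming rule: nuclear Nduf, Sdh, Uqcr, Cox (subunits 4 to 8 with a letter a, b or c) and Atp5 genes, and the mt-Nd, mt-Co, mt-Cytb and mt-Atp genes of the mitochondrial genome. The rule found 94 symbols among 32245 in each of 2 count matrices and 96 among 35624 in the count table of the AZD3965 experiment. These were 97 symbols in all and 96 distinct genes, because Atp5f1 and Atp5pb name the same gene. Each matrix held 36 nuclear and 7 mitochondrially encoded genes of complex I, 4 nuclear genes of complex II, 8 nuclear and 1 mitochondrial of complex III, 16 and 3 of complex IV, and 17 and 2 of complex V. The AZD3965 table added Ndufb1 and Cox6c2, which GENCODE M21 types as a noncoding RNA at a bidirectional promoter and as a processed pseudogene. Ndufa4, now known as a complex IV protein, stayed with complex I by its name, and Cox4i1, Cyc1, Cycs and Ndufab1 fell outside the rule.

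The cells were primary peritoneal macrophages of 6-month-old male C57BL/6 mice, kept because they adhered after a day in culture, and no allele or transgene was named for them. In scMeT-seq, a nanocapillary drew a little cytoplasm from a living cell for its metabolome, and the rest of the same cell then went through Smart-seq2, a full-length RNA sequencing method primed with oligo(dT). CTL (8 cells) and Lactic (8 cells) were untreated and 10 mM lactate-treated scMeT-seq cells, and lactate (5 cells) and lactate+AZD (5 cells) were scMeT-seq cells with lactate alone or with 300 nM AZD3965, an inhibitor of the lactate transporter MCT1. A technique comparison held 4 Lactic_scMeT-seq cells, 3 lactate-treated whole cells (Lactic_SMART2-seq) and 2 untreated whole cells (CTL_SMART2-seq). Treatments lasted 72 h, and the time in culture of the untreated cells was not given in the sources used here. No animal or culture was named for any cell, which leaves 1 sample in each group and no test of treatment against replicate spread, and differences between cells are given as ranges. The counts of a group's cells were added up and scaled to CPM, counts in 1000000 counts of all genes. Many of the log2 ratios between groups carry an exact 95% interval in parentheses, and values with cells left out are named as such. The interval treats every read as an independent draw and leaves out the spread over cells. These libraries had no molecular identifiers and PCR copies were counted as reads, so the intervals are too narrow even for counting error.

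The respiratory chain sits in the inner mitochondrial membrane. Complexes I (NADH dehydrogenase) and II (succinate dehydrogenase) pass electrons to ubiquinone, complex III hands them to cytochrome c and complex IV to oxygen, and complex V uses the resulting proton gradient to make ATP. Complexes I, III, IV and V are built from subunits of both genomes, whereas every subunit of complex II is nuclear. Macrophages are known for shifting between oxidative metabolism and glycolysis with activation, and complex II also supplies succinate metabolism in these cells.

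Total counts per cell ran from 58444 to 851417, with a median of 361254, and were lowest in the AZD3965 experiment (58444 to 175450). All 18 macrophage markers had counts in each of the 7 groups. In 4 cells the fibroblast, mesothelial and B cell markers summed to at least 10% of the macrophage markers: CTL30 (26.3%), CTL32 (3500%), Lactic29 (17.6%) and W14 of lactate+AZD (66.1%). CTL32 had counts for 13 of 14 fibroblast markers, at 43947 CPM, against 1259 CPM for the macrophage markers, so its label as a macrophage does not match its markers. Results that rest on these 4 cells are given with and without them.

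Of the 97 symbols, 38 had counts in all cells of their tables and 77 in at least 90% of them. Cox6b2, Cox8b and Cox8c, which are known as testis or muscle isoforms of complex IV subunits, had no count in any cell. The muscle isoform Cox6a2 had 7 counts in 1 of 35 cells (W20), Cox7a1, also a muscle isoform, had counts in 3 cells, and Cox7b2 in 2. Their widely expressed partners Cox6a1, Cox6b1, Cox7a2, Cox7b and Cox8a had counts in 35 of 35 cells, and Cox7a2l in all cells but F8. Over the 30 scMeT-seq cells their mean levels per kilobase of exon were 209 CPM for Cox6a1, 239.8 for Cox6b1, 140.004 for Cox7a2, 138 for Cox7a2l, 67.9 for Cox7b and 442 for Cox8a, against 2.12 for Cox6a2, 1.29 for Cox7a1 and 0.865 for Cox7b2. Among the 3 genes for the c-ring subunit of complex V, which encode the same mature protein, Atp5g2 was the highest per kilobase (74.1 CPM), followed by Atp5g3 (31.4) and Atp5g1 (12.8). The divisor was the annotated exon length of a gene, here 1675, 2181 and 4912 bases, which can exceed the length of its mRNA. Before this division the 3 genes were at 124, 68.5 and 62.9 CPM, so Atp5g3 and Atp5g1 were nearly level.

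On the same scale of level per kilobase, the 6 highest members were mitochondrial. Other mitochondrial members lay among the nuclear ones, from 350.7 CPM (mt-Nd4) down to 75.7 CPM (mt-Nd3). The range leaves out mt-Atp8, whose level was 116 CPM per kilobase in the lactate, 62.2 in the technique and 945 in the AZD3965 experiment. Within the technique experiment, whole cells included, the nuclear Cox8a (554) was above mt-Nd1 (427), mt-Co3 (352) and mt-Nd5 (164). The catalytic subunit of complex IV, mt-Co1, reached 4034 CPM per kilobase and was the highest mitochondrial gene in 35 of 35 cells. It was followed by mt-Atp6 (1563), the proton channel subunit of complex V, by mt-Nd1 (1168), a membrane subunit of complex I, and by the complex IV subunits mt-Co2 (961) and mt-Co3 (599.8) and the complex I subunit mt-Nd5 (482). Within each complex, the highest nuclear members were Cox8a (442), Cox6b1 (239.8) and Cox6a1 (209) in complex IV, Ndufa2 (265), Ndufa1 (174) and Ndufa8 (124) in complex I, the catalytic subunit Atp5b (146) with Atp5a1 (144) and Atp5c1 (143) in complex V, Uqcr11 (133), Uqcr10 (118) and Uqcrh (97.8) in complex III, and the membrane anchor Sdhd (122) in complex II. The flavoprotein Sdha, which carries the succinate site, stood at 44.8 CPM per kilobase and the iron-sulfur subunit Sdhb at 63.9. Ranks on this scale depend on the annotated exon length. Before division by length, Sdha (185 CPM) was above Sdhd (149.7), and the nuclear Atp5b (618) was above mt-Co3 (470).

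The nuclear sum varied little between cells and the mitochondrial sum varied much. The 81 or 83 nuclear members together took 5732 CPM in Lactic29 to 13049 CPM in Lactic16, a 2.28-fold range with a median of 8117 CPM. The 13 mitochondrial members took 3163 CPM in Lactic16 to 34019 CPM in CTL31, a 10.8-fold range with a median of 8565 CPM. The highest mitochondrial sums belonged to CTL31, CTL30 (33127 CPM) and Lactic29 (22606 CPM), of which CTL30 and Lactic29 also carried fibroblast markers. The ratio of the mitochondrial to the nuclear sum ran from 0.242 to 3.94 with a median of 1.03, and the mitochondrial sum exceeded the nuclear one in 20 of 35 cells. These sums are CPM of the same cells, so a higher mitochondrial share leaves less of the total to every other gene. That share was small, from 0.316% of counts in Lactic16 to 3.40% in CTL31.

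**Figure D1:**
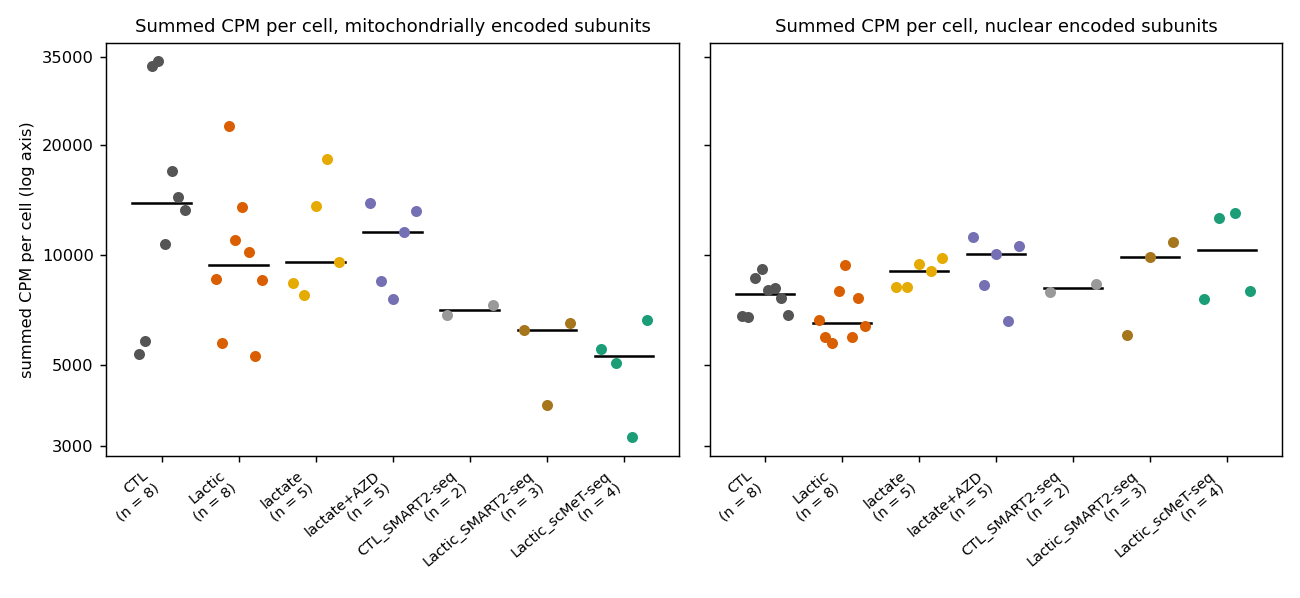
Summed CPM per cell (log axis) of the mitochondrially encoded subunits (left) and of the nuclear encoded ones (right) in the 7 groups. Each point is 1 cell and each bar the median of a group; the mitochondrial sums spread from 3163 to 34019 CPM and the nuclear sums from 5732 to 13049 CPM.

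The order of the complexes was stable. Among the nuclear sums, complex V was the highest in 24 of 35 cells and complex I in the other 11, complex IV came after these in 34 cells, and complex II was the lowest in 32. These are sums over unlike numbers of genes and lengths. The largest part of the mitochondrial sums was mt-Co1, which made up 49.5% of the mitochondrial counts in lactate+AZD, 51.6% in lactate, 51.7% in CTL, 57.1% in Lactic, 56.8% in CTL_SMART2-seq, 54.6% in Lactic_SMART2-seq and 58.0% in Lactic_scMeT-seq.

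The first comparison asked how lactate-treated scMeT-seq macrophages differed from untreated ones. All 13 mitochondrially encoded subunits were lower in Lactic than in CTL, together 10599.9 CPM where CTL had 17021 (log2 ratio -0.68, 95% interval -0.70 to -0.66). The nuclear subunits together were 6836 against 7780.05 CPM, a log2 ratio of -0.19 (-0.21 to -0.16). The single member at least 2-fold higher was Sdha, and 5 members were at least 2-fold lower: mt-Atp8, Atp5o, mt-Cytb, mt-Atp6 and mt-Nd6. The cells overlapped widely, since the mitochondrial sum was 5338, 13884 and 34019 CPM (lowest, median and highest) in CTL and 5292, 9396 and 22606 CPM in Lactic. The nuclear sum was 6773, 7818 and 9157 CPM in CTL and 5732, 6494 and 9408 CPM in Lactic, again overlapping.

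Of the 94 members, 87 had at least 10 counts over both groups. Past 2-fold lay 6 of them, 1 higher and 5 lower, against 37.2% of all 11505 genes measured (15.1% higher and 22% lower), and this difference in share was not tested. With at least 100 counts, 85 members remained and 1 was higher and 4 lower, against 21.9% of all genes with that many counts (9.35% higher and 12.6% lower). The ratio was below 0 in 68 of 87 members, against 54.2% of all genes, and the median of the members was -0.31, against -0.09 for all genes. Cells of the 2 groups did not separate for any member, nor for any other gene (0% of 11505).

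Without CTL30, CTL32 and Lactic29, the mitochondrial sum had a log2 ratio of -0.79 and the nuclear sum of -0.11. Leaving out 1 cell at a time, the mitochondrial sum ranged from -0.96 without Lactic29 to -0.45 without CTL30, and stayed below 0. That cannot show the joint weight of CTL30 (33127 CPM) and CTL31 (34019 CPM), since either remains when the other is left out. The other control cells, from CTL27 (5338 CPM) to CTL33 (16973 CPM), all lay inside the range of the Lactic cells (5292 to 22606 CPM). The size of the difference in the sum thus leans on CTL30 and CTL31, and the ratio without both was not computed. The count of members past 2-fold was less firm, from 1 without CTL30 to 12 without CTL34, and 10 or 11 without Lactic29, Lactic31, CTL32 or CTL35. Fibroblast markers differed between the groups as well: 13 of 14 had counts in CTL (Lum was at 0), with 0 to 43947 CPM per cell, and 11 of 14 in Lactic (Lum, Pdgfra and Postn at 0), with 0 to 7588 CPM. The macrophage marker sum was 63802 CPM in CTL and 71546 in Lactic.

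**Figure D2:**
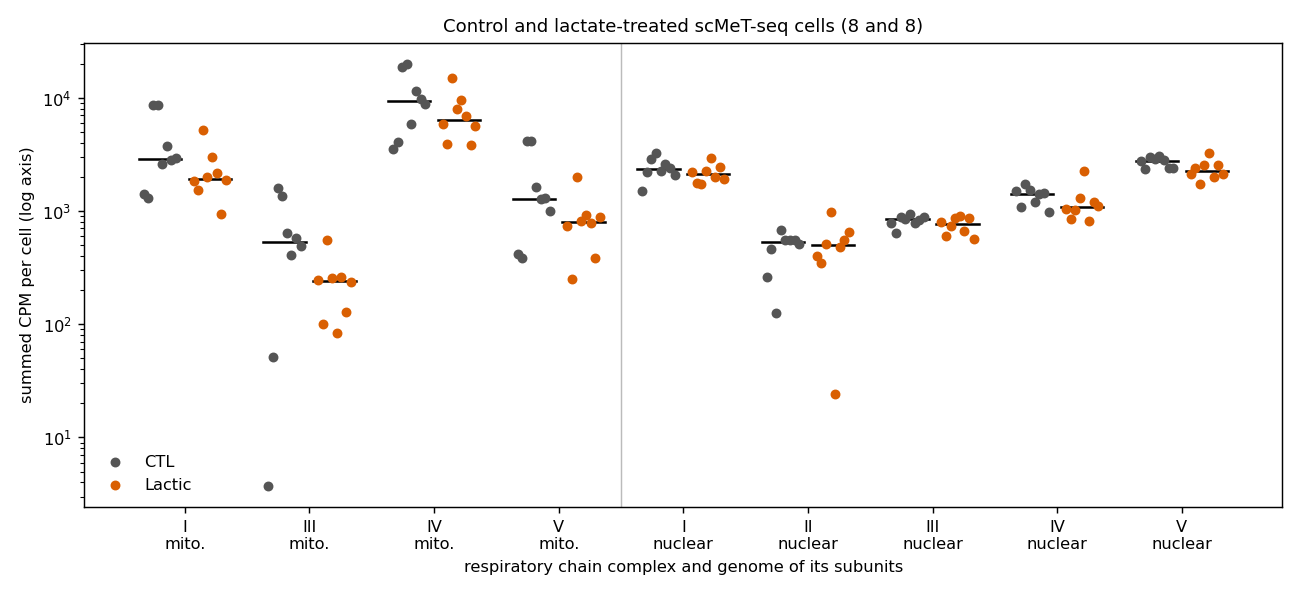
Summed CPM per cell (log axis) by complex and genome in the 8 CTL and 8 Lactic cells, with mitochondrial sums left of the line and nuclear sums right of it. Bars are medians; the medians of all 4 mitochondrial sums are lower in Lactic, and the cells of the 2 groups overlap in each of the 9 sums.

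Complex I takes electrons from NADH, and its mitochondrial subunits form the membrane arm that pumps protons. Their sum was 1289.65, 2876 and 8619 CPM in CTL and 942, 1929 and 5206 CPM in Lactic. The group values were 4059.8 and 2299 CPM, a log2 ratio of -0.82 (-0.86 to -0.78), and -0.92 without the 3 cells. All 7 genes lay between -0.68 (mt-Nd5) and -1.01 (mt-Nd6). The cells of mt-Nd6, the only member encoded on the light strand, stood at 14.8, 76.8 and 417 CPM in CTL and 9.31, 36.4 and 183 CPM in Lactic. Its ratio of -1.01 (-1.27 to -0.77) became -0.45 without CTL30, the highest cell, and -0.87 without the 3 cells, and lay between -0.99 and -0.82 without Lactic27, Lactic28, Lactic30, Lactic33, Lactic34, CTL31 or CTL35. The others were mt-Nd1 at -0.95 (-1.09 without the 3 cells, past 2-fold), mt-Nd2 at -0.72, mt-Nd3 at -0.92, mt-Nd4 at -0.77 and mt-Nd4l at -0.998, just inside the limit.

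The 35 measured nuclear subunits of complex I differed less, with a sum of 2126 CPM in Lactic against 2429 in CTL (log2 ratio -0.19, -0.24 to -0.14), and none was past 2-fold. The 7 core subunits, which hold the flavin and iron-sulfur centres, had a median of -0.10 and the 28 measured accessory ones a median of -0.22. Among the core subunits, Ndufs8 stood at -0.83 (33.6 against 59.8 CPM) and Ndufv1 at -0.36, whereas Ndufs7 was at 0.31, Ndufv2 at 0.09, Ndufs1 at -0.10 and Ndufs3 at -0.13. Closest below the limit were the accessory subunits Ndufs5 (-0.995) and Ndufc1 (-0.98), which were chosen after their values were seen. Ndufc1 stood at 49.8, 99.9 and 189.6 CPM in CTL and 17.8, 58.6 and 93.4 CPM in Lactic, so its cells overlapped. Ndufa9 went from 0.56 to 1.33, past 2-fold, without the 3 cells.

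Complex II links the citric acid cycle to the chain, and the ratios of its 4 genes stood on both sides of 0. Sdha stood at 0, 163 and 235 CPM in CTL, with counts in 5 of 8 cells, and at 20.8, 241 and 569 CPM in Lactic, with counts in 8 of 8. The group values were 118 and 244 CPM, a log2 ratio of 1.05 (0.86 to 1.23). The 3 control cells at 0 were CTL27, CTL28 and CTL30, and the highest cell was Lactic30. Sdha stayed past 2-fold without the 3 cells with other markers (1.02) but not without Lactic30 (0.78), Lactic34 (0.97), CTL28 (0.81), CTL30 (0.84) or CTL27 (0.91). The partners were at -0.64 (Sdhb, -0.87 to -0.42), -0.20 (Sdhc, -0.53 to 0.12) and -0.39 (Sdhd, -0.59 to -0.18). The complex as a whole was at 498 CPM in Lactic and 466 in CTL, a log2 ratio of 0.10 with an interval from -0.01 to 0.20, and at -0.04 without the 3 cells.

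The 150 bases before the RefSeq start sites (GRCm38.p6) of Sdha and its partner Sdhd are shown as examples. This pair was chosen after its ratios were seen, and a link between these bases and the ratios was not tested. Sdha lies on chromosome 13 and Sdhd on chromosome 9, both on the minus strand, and the windows are chr13:74350241-74350390 and chr9:50603850-50603999. Capitals mark a match to the ETS motif CCGGAAG on either strand, found in Sdhd and not in Sdha.
Sdha: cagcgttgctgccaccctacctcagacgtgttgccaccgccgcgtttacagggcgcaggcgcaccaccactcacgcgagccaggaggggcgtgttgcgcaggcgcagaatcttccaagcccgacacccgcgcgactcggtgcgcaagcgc
Sdhd: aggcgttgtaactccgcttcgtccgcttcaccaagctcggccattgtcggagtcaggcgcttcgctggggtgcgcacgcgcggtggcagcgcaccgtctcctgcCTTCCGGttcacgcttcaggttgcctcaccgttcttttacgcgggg

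A promoter window was at hand for 69 nuclear members, and 3 motifs of factors known at chain genes were searched on both strands from 250 bases before to 50 after the start. The 10-base palindrome of NRF1 was in 5 of them (7.25%), against 1.07% of all 27025 genes with a window. CCGGAAG was in 17 (24.6%), against 9.93%, and the YY1 motif AAGATGGCG in 7 (10.1%), against 1.64%. Any of the 3 was in 26 (37.7%), against 12.1%, and the ETS and YY1 motifs can share their AAG. These are matches of letters, not sites of binding. The 27025 genes were not limited to genes with counts in these cells, so the shares do not set chain genes against other expressed genes. Sdhb held the ETS motif as well, and Sdha held none of the 3.

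Complex III carries electrons from ubiquinol to cytochrome c, and its only mitochondrial subunit is mt-Cytb. It stood at 3.71, 529 and 1595 CPM in CTL and at 83.0, 242 and 556 CPM in Lactic. The group values were 647 and 238 CPM, a log2 ratio of -1.44 (-1.57 to -1.32). Control cells lay at both ends, with CTL27 and CTL28 (51.1 CPM) below every Lactic cell and CTL30 and CTL31 (1343 CPM) far above, while the other 4 control cells were at 408 to 634 CPM. The ratio was past 2-fold whichever single cell was left out (-1.78 to -1.07) and without the 3 cells (-1.34). Each of these settings kept CTL30 or CTL31, so they cannot show whether the ratio stays past 2-fold without both. That ratio was not computed. The 8 nuclear subunits summed to 742 CPM in Lactic and 820 in CTL (-0.14, -0.23 to -0.06). The catalytic iron-sulfur protein Uqcrfs1 was at -0.66, the core proteins Uqcrc1 and Uqcrc2 at -0.05 and -0.43, and Uqcrh at 0.09.

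Complex IV reduces oxygen with its mitochondrial subunits mt-Co1 and mt-Co2. Their sum with mt-Co3 was 3515, 9329 and 19924 CPM in CTL and 3835, 6383 and 14837 CPM in Lactic, a log2 ratio of -0.54 (-0.56 to -0.51) that became -0.69 without the 3 cells. mt-Co2 was at -0.81, mt-Co1 at -0.54 and mt-Co3 at -0.18, and mt-Co3 turned to 0.10 without CTL30. Of the Lactic cells, Lactic31 was the highest in mt-Co3, at 1809.7 CPM, although not in mt-Co1. The 10 measured nuclear subunits summed to 1156 against 1359 CPM (-0.23, -0.30 to -0.17) and none was past 2-fold. Cox6b1 (-0.60) and Cox6a1 (-0.58) were lower, Cox8a (-0.03), Cox7b (-0.24) and Cox7a2 (-0.17) nearer to 0, and Cox7a2l, known as a supercomplex assembly factor, was at 0.29 (0.12 to 0.47). Cox7b2, Cox7a1, Cox6a2, Cox6b2, Cox8b and Cox8c had fewer than 10 counts over both groups and gave no ratio.

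Complex V makes ATP, with mt-Atp6 and mt-Atp8 in its membrane part. mt-Atp6 stood at 376, 1267 and 4070.4 CPM in CTL and at 247, 785 and 1981 CPM in Lactic, a log2 ratio of -1.10 (-1.17 to -1.03). CTL30 and CTL31 lay far above every other cell. Without CTL30 or CTL31 it fell short of 2-fold (-0.78 and -0.81), as it did without Lactic28 (-0.95) or Lactic33 (-0.98), and without the 3 cells it was -1.11. mt-Atp8 was at -1.55 (-2.134 to -0.999) on 37 against 105 counts, and at -0.85 without CTL30. The nuclear subunits summed to 2314 against 2706 CPM (-0.23, -0.27 to -0.18). The catalytic subunits Atp5a1 (0.06) and Atp5b (-0.12) were near 0, the c-ring genes were at -0.72 (Atp5g1), -0.52 (Atp5g2) and 0.45 (Atp5g3), and Atp5o was at -1.46 on 3 against 8 counts, with an interval from -4.01 to 0.60, and at -0.68 without the 3 cells.

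**Figure D3:**
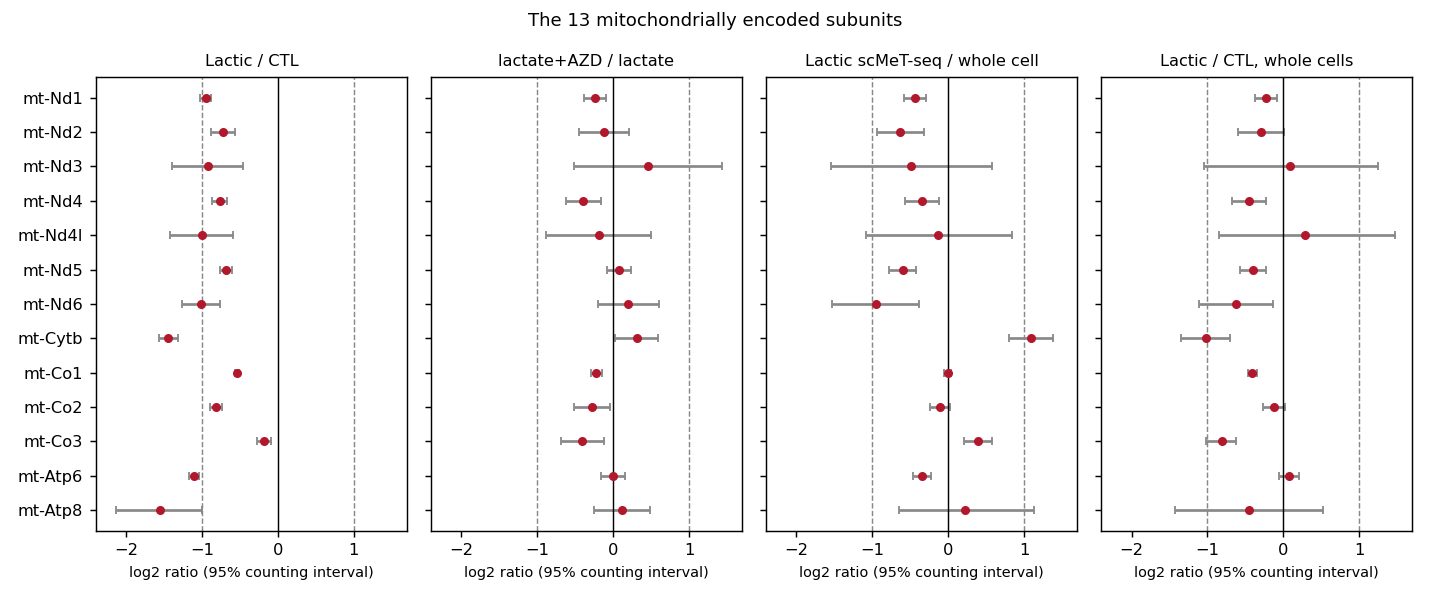
Log2 ratios of the 13 mitochondrially encoded subunits with 95% counting intervals in the 4 comparisons. Dashed lines mark 2-fold; all 13 points lie below 0 for Lactic over CTL, from -1.55 (mt-Atp8) to -0.18 (mt-Co3).

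The question of the AZD3965 experiment was what blocking MCT1 added to lactate. Both genomes were close to the level with lactate alone. The nuclear subunits summed to 9129 CPM with AZD3965 and 8977 without, a log2 ratio of 0.02 (-0.03 to 0.08), and the mitochondrial ones to 10755 and 12005 CPM (-0.16, -0.21 to -0.11). The mitochondrial sum was 7599, 8464, 11569, 13209.7 and 13894 CPM in the 5 lactate+AZD cells (T10, F9, W10, W14, F8) and 7785, 8396, 9599.5, 13605 and 18413 CPM in the 5 lactate cells (T11, F18, W5, T13, W20). The ranges overlapped, and the ratio turned to 0.08 without W20 and was -0.27 without W14. Single members went further: 8 were at least 2-fold higher and 1 lower of 89 measured, against 40.5% of 8764 genes past 2-fold (24.9% higher and 15.6% lower). With at least 100 counts, 1 of 62 members was past 2-fold (Atp5l, higher), against 13.1% of genes (8.85% higher and 4.24% lower). The median of the members was -0.03, against 0.17 for all genes.

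By complex, the mitochondrial sums were at -0.12 (complex I), 0.31 (complex III), -0.23 (complex IV) and 0.02 (complex V). That of complex III is mt-Cytb alone, at 166 (F9), 198 (T10), 214 (W10), 582 (F8) and 714 CPM (W14) with AZD3965 and 169.6 (T11), 179.9 (W5), 199 (F18), 353 (T13) and 487 CPM (W20) without. F8 and W14 were above all cells without AZD3965, and the ratio was -0.23 without W14, the cell with fibroblast markers. The nuclear sums were at 0.04, -0.09, -0.01, -0.05 and 0.07 for complexes I to V, each with an interval that includes 0. Fibroblast markers had counts for 11 of 14 genes with AZD3965 (Lum, Pdgfrb and Thy1 at 0), with 0 to 17417 CPM per cell, and for 8 of 14 without it (Col6a1, Col6a2, Lum, Pdgfra, Pdgfrb and Thy1 at 0), with 0 to 6767 CPM. Mesothelial markers had counts for 4 of 8 genes with AZD3965 (487 CPM over the group) and for none without it. Without W14 the nuclear sum was at -0.05.

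Most of the higher members were nuclear subunits of complex I, at low counts. Of the 37 measured nuclear members of this complex, 6 were at least 2-fold higher and 1 lower, beside 24.9% and 15.6% of all genes. The median of the 37 was -0.04. Ndufc1, an accessory membrane subunit, stood at 33.4 (W10), 63.6 (W14), 92.1 (T10), 137 (F8) and 221 CPM (F9) with AZD3965 and at 0 (F18), 12.6 (T11), 15.0 (W5), 34.2 (T13) and 55.5 CPM (W20) without. Its group values were 94.6 and 26.4 CPM, a log2 ratio of 1.84 (1.07 to 2.68) that ranged from 1.44 to 2.40 with 1 cell left out. The lowest AZD3965 cell, W10, was below 2 of the cells with lactate alone, so the groups overlapped.

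Ndufa5, an accessory subunit of the matrix arm, stood at 46.7 (W10), 49.5 (W14), 55.3 (F9), 70.8 (T10) and 188 CPM (F8) with AZD3965 and at 0 (W5), 22.8 (T13), 24.7 (W20), 33.1 (F18) and 44.0 CPM (T11) without, a log2 ratio of 1.46 (0.63 to 2.35; 1.15 without F8). Its groups did not overlap. The same was true of Ndufs5, at 85.6 to 127 CPM against 33.1 to 81.7 CPM (0.80, 0.22 to 1.38). These 2 of 89 members compare with 0.377% of all genes whose cells did not overlap in this experiment (0.319% higher and 0.0571% lower).

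Ndufs4, needed for a complete matrix arm, was at 80.9 against 31.9 CPM (1.34, 0.59 to 2.13), and at 0.94 without T13, whose value was 0. Ndufa9 was at 98.1 against 41.6 CPM (1.24, 0.57 to 1.93), with T10 (191 CPM) and W14 (141 CPM) the highest, and at 0.71 without T10 and 0.83 without T13. Its direction turned with the median of per-cell CPM, which was 44.3 CPM with AZD3965 and 50.3 without (log2 ratio -0.18). The core subunit Ndufs8 was at 44.7 against 18.04 CPM (1.31, 0.30 to 2.39) on 26 and 13 counts, and at 0.91 without T13 and 3.64 without W20. Ndufb6 (1.24) and the complex V subunit Atp5k (1.06) also passed 2-fold, with more than 50% of the summed level in F8, the shallowest cell. They are named here to complete the count of 8, and stood at 0.77 and 0.61 without F8, and Ndufb6 at 0.96 without W14. T13 and F8 recur among the cells on which these ratios rest.

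Ndufv1, the core subunit that binds NADH, was the only member at least 2-fold lower. It stood at 0 (W10), 33.2 (F9), 34.2 (F8), 56.6 (W14) and 70.8 CPM (T10) with AZD3965 and at 22.1 (F18), 50.3 (T11), 117 (W20), 119.9 (W5) and 125 CPM (T13) without, a log2 ratio of -1.23 (-1.98 to -0.53). The groups overlapped, and without W10 the ratio was -0.80. Its partner Ndufv2 was at -0.96 and the core subunits Ndufs7, Ndufs1 and Ndufs3 were at -0.74, -0.09 and 0.31, so core subunits stood on both sides of 0, as did the 30 accessory ones (median 0.09).

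In complex V, Atp5l, a membrane subunit of the ATP synthase dimer, stood at 60.1 (W10), 149 (W14), 205 (T10), 232 (F9) and 257 CPM (F8) with AZD3965 and at 37.5 (W5), 61.7 (W20), 62.8 (T11), 99.4 (F18) and 137 CPM (T13) without. Of the AZD3965 cells, 4 were above every cell with lactate alone and W10 was below 4 of them. The ratio of 1.02 (0.54 to 1.52) was under 2-fold without W5 (0.86), T10 (0.90), F9 (0.91), F8 (0.93), W20 (0.93) or T11 (0.94). The catalytic Atp5a1 (-0.07) and Atp5b (-0.03) were near 0, and the c-ring genes were at -0.76 (Atp5g1), -0.64 (Atp5g2) and 0.50 (Atp5g3).

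In complexes II to IV no member was past 2-fold with all cells included. Sdha was at 176 against 184.5 CPM (-0.07, -0.46 to 0.31), Sdhb at -0.57, Sdhc at 0.17 and Sdhd at 0.28. In complex III the iron-sulfur protein Uqcrfs1 was at 0.98 (0.54 to 1.44) and the core protein Uqcrc1 at -0.85 (-1.25 to -0.45). In complex IV, Cox8a was at -0.08. Cox7a2l was at -0.59 (-0.92 to -0.26), with 0 (F8), 22.1 (F9), 63.7 (T10), 127 (W14) and 587 CPM (W10) with AZD3965 and 125 (T13), 155 (F18), 202 (W5), 478 (T11) and 487 CPM (W20) without. W10 was the highest of the 10 cells, and without it the ratio was -2.17, past 2-fold.

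**Figure D4:**
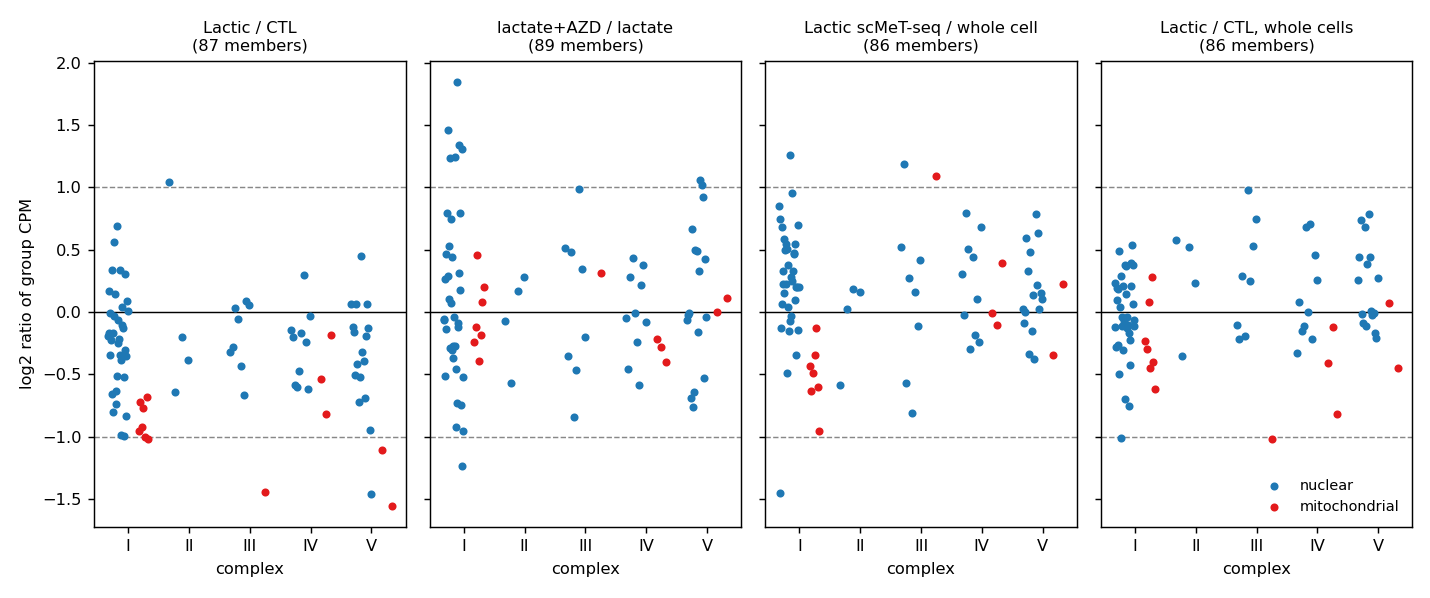
Log2 ratios of group CPM of each measured member by complex (I to V) in the 4 comparisons, with nuclear members in blue and mitochondrial ones in red. Dashed lines mark 2-fold; the mitochondrial members lie below 0 throughout for Lactic over CTL and on both sides of 0 with AZD3965.

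The technique comparison asked whether drawing cytoplasm before lysis moved the readout, and it set the 4 Lactic_scMeT-seq cells against the 3 Lactic_SMART2-seq whole cells. The nuclear sum was 10129 against 9156 CPM (0.15, 0.12 to 0.17) and the mitochondrial sum 5153 against 5508 CPM (-0.10, -0.13 to -0.06). The nuclear sum was 7601 (Lactic13), 7971 (Lactic17), 12652 (Lactic14) and 13049 CPM (Lactic16) after sampling and 6038 (Lactic5), 9870.3 (Lactic6) and 10894 CPM (Lactic7) in whole cells. Lactic14 and Lactic16 were above all whole cells and Lactic5 below all others, so the ranges overlapped. Of 86 measured members 3 were at least 2-fold higher after sampling and 1 lower, against 42.3% of 9723 genes (21.7% higher and 20.6% lower). The ratio of the nuclear sum turned to -0.04 without Lactic5, and that of the mitochondrial sum to 0.08 without Lactic16. The number of members past 2-fold was 1 without Lactic5 and 7 to 10 without Lactic13, Lactic17, Lactic7 or Lactic6.

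The 3 higher members belonged to complexes I and III. mt-Cytb stood at 84.4 (Lactic16), 125 (Lactic17), 201 (Lactic13) and 248 CPM (Lactic14) after sampling and at 52.6 (Lactic5), 70.8 (Lactic7) and 99.6 CPM (Lactic6) in whole cells, a log2 ratio of 1.09 (0.80 to 1.38) that was 0.86 without Lactic14, 0.92 without Lactic5 and 0.96 without Lactic13, and 0.54 against all 5 whole cells, controls included. Uqcr11, a small accessory subunit of complex III, stood at 70.7 (Lactic17), 81.6 (Lactic13), 217 (Lactic16) and 302 CPM (Lactic14) against 18.2 (Lactic5), 89.7 (Lactic7) and 91.4 CPM (Lactic6), a log2 ratio of 1.18 (0.89 to 1.49; 0.78 without Lactic14 and 0.81 without Lactic5). Ndufb6, a complex I membrane arm subunit, stood at 31.4, 36.8, 72.8 and 92.4 CPM against 10.1, 27.7 and 29.9 CPM, a log2 ratio of 1.25 (0.74 to 1.80; 0.96 without Lactic5, 0.98 without Lactic14 and 0.90 against all whole cells). Only the third of these separated the groups, and Lactic14 was the highest cell in each of them.

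The lower member was Ndufa10 (-1.45, -1.80 to -1.11), of whose summed level 53.2% came from Lactic6, and without which it was -0.94. All 7 mitochondrial subunits of complex I were below 0, from -0.95 (mt-Nd6) to -0.13 (mt-Nd4l), and their sum was 785 against 1107 CPM (-0.50, -0.59 to -0.40). mt-Co1 was at -0.01 and mt-Co3 at 0.39, and mt-Atp6 was at -0.35. Beside Ndufb6, cells did not overlap for Atp5j, a stalk subunit of complex V (0.78, higher), and for mt-Nd6 (lower), which makes 3 of 86 members against 4.77% of all genes (1.7% higher and 3.08% lower). Sdha was at -0.58 (-0.75 to -0.41), at 230.3 against 345 CPM, and Cox8a at 0.68 (0.53 to 0.84). Fibroblast markers had counts for 4 of 14 genes after sampling and 7 of 14 in whole cells (22.5 and 154 CPM over the groups).

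The last comparison took lactate in whole cells, 3 Lactic_SMART2-seq against 2 CTL_SMART2-seq cells. The same 3 lactate-treated cells enter the technique comparison, so the 2 results are not independent. The mitochondrial sum was 3878 (Lactic6), 6218 (Lactic5) and 6525 CPM (Lactic7) with lactate and 6837 (CTL4) and 7317 CPM (CTL8) without, a log2 ratio of -0.35 (-0.39 to -0.31), and the cells did not overlap. With so few cells, the groups also did not overlap for 21.4% of 9732 single genes (5.99% higher and 15.4% lower). The nuclear sum was 6038, 9870.3 and 10894 CPM with lactate and 7899.8 and 8327 CPM without (0.18, 0.15 to 0.22), and the cells overlapped. Of 86 measured members none was at least 2-fold higher and 2 were lower, against 42.8% of 9732 genes (15.2% higher and 27.6% lower). With at least 100 counts, 80 members remained and the same count of 0 higher and 2 lower stood against 25.3% of genes (8.48% higher and 16.8% lower). The ratio was below 0 in 44 of 86 members, against 57.6% of all genes. The number past 2-fold was 13 without CTL4 and 1 without Lactic5.

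The lower members were mt-Cytb and Ndufa9. mt-Cytb was at 52.6, 70.8 and 99.6 CPM with lactate and 117 and 209 CPM without. Every lactate-treated cell was lower, as was the case for 15.4% of all genes. Its log2 ratio of -1.02 (-1.34 to -0.70) became -0.63 without CTL8, -0.86 without Lactic5 and -0.97 without Lactic7. Ndufa9 was at 49.9 against 100.5 CPM (-1.01, -1.41 to -0.62), of whose summed level 77.2% came from CTL8, and it was at -0.05 without that cell. Sdha was at 253, 279 and 479.8 CPM with lactate and 82.0 and 329 CPM without, a log2 ratio of 0.58 (0.38 to 0.78) with overlapping cells, which was 0.068 without CTL8 and 2.07 without CTL4.

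By genome and complex, mitochondrial complexes I (-0.33) and IV (-0.40) were below 0 and complex V was at 0.06 (-0.07 to 0.19), while the nuclear sums were at 0.01, 0.22, 0.25, 0.19 and 0.31 for complexes I to V. Cells did not overlap for 11 members that were higher and 6 that were lower of 86, against 21.4% of all genes (5.99% higher and 15.4% lower). The higher ones, chosen by this count, were Ndufb7, Ndufs6, Ndufs7, Uqcrc2, Uqcrh, Uqcrq, Cox7a2l, Cox7c, Atp5c1, Atp5g3 and Atp5h, and the lower ones mt-Co1, mt-Co3, mt-Cytb, mt-Nd5, Ndufb6 and Sdhb. Uqcrc2 was the farthest of the higher ones, at 104, 152 and 166 CPM against 57.1 and 78.7 CPM (0.98, 0.64 to 1.33). Levels of mt-Co3 were 145, 188 and 283 CPM with lactate and 327 and 424 CPM without (-0.81, -1.01 to -0.62).

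Genes around the chain were counted in the same way. In Lactic over CTL, 1 of 12 measured chain genes outside the rule was at least 2-fold higher (Coq2, 2.47, for ubiquinone synthesis) and 1 lower (Coq9, -2.11, for the same pathway), with a median of -0.27. Of 39 assembly factors, 7 were higher and 3 lower, with a median of 0.10, beside 15.1% higher and 22% lower of all genes. Of 25 genes that copy, transcribe or translate the mitochondrial genome, 4 were higher and 7 lower, with a median of 0.33, and of 8 transcriptional regulators 1 was higher (Esrra, 1.42) and 1 lower (Ppargc1b, -1.11). With AZD3965 the higher and lower counts were 1 and 0 of 11 (Coq7, 2.70), 7 and 4 of 32, 2 and 6 of 16, and 1 and 1 of 5 for these 4 lists, beside 24.9% and 15.6% of all genes. In the technique comparison they were 1 and 2 of 12, 6 and 9 of 36, 5 and 10 of 23, and 1 and 0 of 8, beside 21.7% and 20.6% of all genes. In whole cells they were 1 and 0 of 12, 8 and 5 of 35, 5 and 5 of 21, and 1 and 5 of 8, beside 15.2% and 27.6% of all genes. The last list had a median of -1.52, with Ppargc1b at -1.83, Nrf1 at -1.57, Gabpb1 at -1.57, Pprc1 at -1.47 and Ppard at -4.33 lower and Esrra at 1.62 higher. Most of the genes past 2-fold in these lists were below 50 CPM in both groups.

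The 3 count tables did not count every member alike. Ndufa13, an accessory subunit of complex I, had 0 counts in all 25 cells of the 2 matrices and counts in 10 of 10 cells of the AZD3965 table, from 46.7 to 191 CPM. In GENCODE M21 (GRCm38) it lies at chr8:69894180-69902558 on the minus strand, inside the same-strand gene Yjefn3 (chr8:69887788-69902712), which had 10 counts in 2 of 16 cells of the lactate experiment and 0 in the other tables. Only the spans of these genes overlap, since no exon of Ndufa13 was listed as overlapping a gene on the same strand. Atp5o, a stalk subunit of complex V, had 11 and 7 counts in the matrices (1.84 and 1.25 CPM) and 179 in the AZD3965 table (137 CPM). A pair of overlapping genes carries its name on the minus strand, chr16:91684398-91926982 and chr16:91925214-91931687. Cox8a, by comparison, overlapped across the 3 tables, with group medians from 209.5 CPM in Lactic to 452 in Lactic_scMeT-seq. The gene lists of the tables were unlike, with 32245 symbols in each matrix and 35624 in the AZD3965 table, and with Atp5f1 against Atp5pb for 1 gene. Whether this accounts for the unlike levels was not tested. Ratios between groups were taken only within a table.

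**Figure D5:**
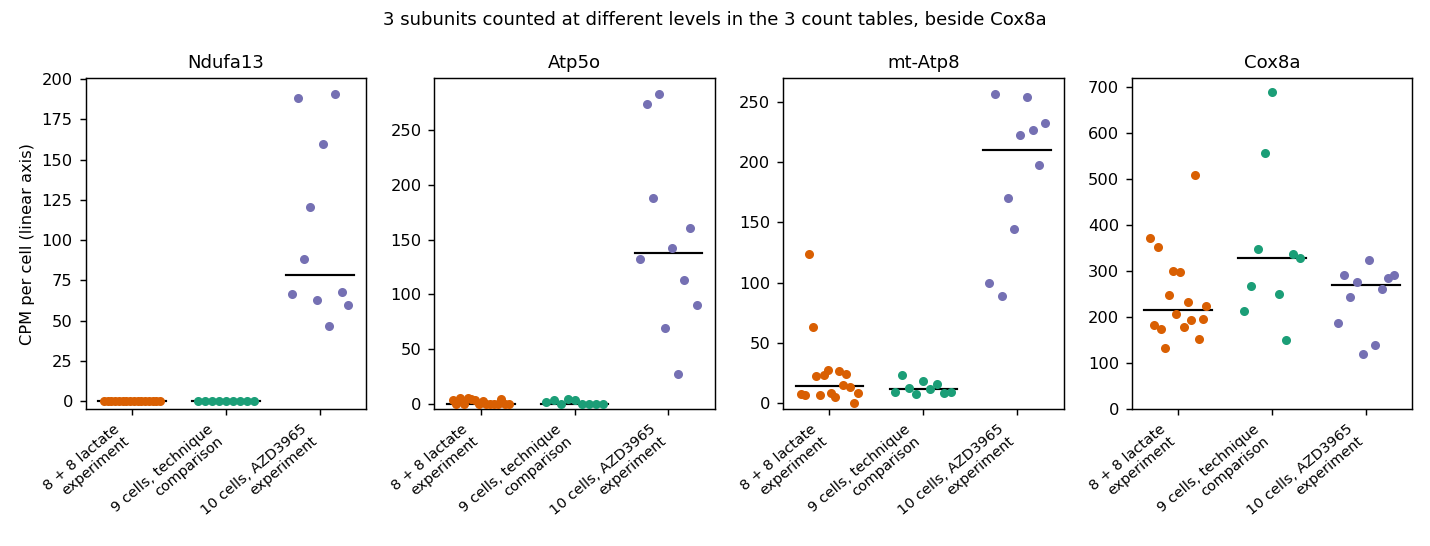
CPM per cell (linear axes, 1 per gene) of Ndufa13, Atp5o, mt-Atp8 and Cox8a in the 3 count tables, with bars at the medians. Ndufa13 is 0 in all 25 cells of the 2 matrices and 46.7 to 191 CPM in the AZD3965 table, while Cox8a overlaps across the 3 tables.

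mt-Atp8 showed the same split. Per 1000 counts of mt-Atp6 it had 0 to 88.7 counts in the 25 cells of the matrices, with medians of 17.97 in CTL and 15.3 in Lactic, and 151 to 288 in the 10 cells of the AZD3965 table. The 2 genes share 43 bases, and mt-Nd4l and mt-Nd4 share 7, so reads over these stretches cannot be assigned to 1 gene by position. The sequences are shown for that reason, from the GENCODE M21 transcripts on the plus strand of chrM (GRCm38): the end of the upstream gene and the start of the downstream one, with the shared bases in capitals.
mt-Atp8, chrM:7907-7969: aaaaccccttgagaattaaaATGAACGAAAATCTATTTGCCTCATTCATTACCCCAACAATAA
mt-Atp6, chrM:7927-7989: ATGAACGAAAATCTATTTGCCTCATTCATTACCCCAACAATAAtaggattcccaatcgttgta
mt-Nd4l, chrM:10147-10173: caaaatctcaacctactacaATGCTAA
mt-Nd4, chrM:10167-10193: ATGCTAAaaattattcttccctcacta
Within the table of the AZD3965 experiment, mt-Atp8 was at 0.11 (-0.26 to 0.48) and mt-Atp6 at 0.00 (-0.16 to 0.16). In all, the exons of 12 members overlap another gene on the same strand and those of 30 a gene on the opposite strand, and the library method does not mark strand.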

How the data were processed

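RNA of 35 single macrophages was sequenced. The authors trimmed reads with fastp 0.20.0, aligned them to mm10 with HISAT2 2.1.0 and assigned them to genes with StringTie, per the methods and the submitters' processing notes, and deposited whole-number counts per gene without normalization. Among the values of the AZD3965 table, 6215 equal 2 and only 1914 equal 1, which the intervals do not allow for. Of the per-sample columns, 0 were left unused.

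Group counts were summed, and log2 ratios of CPM were taken for genes with at least 10 counts over both groups, with conditional Clopper-Pearson 95% intervals. The intervals were tested on simulated Poisson counts, which hold no PCR copies. A group at 0 was set to 3 counts over the group. A call was a 2-fold difference. Python 3.11.15, numpy 2.4.6, pandas 2.3.3, scipy 1.17.1 and matplotlib 3.10.9 were used, and edgeR 4.0.16 in R 4.3.3 for TMM factors only.

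Groups and cell names followed the labels. Members, gene lists and named genes were chosen with earlier results of these data known. Named were the members highest per kilobase in each complex, all mitochondrial members, isoform groups, core subunits, and called members that reached 50 CPM in the higher group, were counted in 50% or more of that group's cells and had no more than 50% of their summed level in any single cell. Other names were chosen after their values were seen. Gene positions came from GENCODE M21 and promoters from RefSeq (GRCm38.p6), both on the build of mm10. Alternatives were the mean and median of per-cell CPM, TMM, a total of nuclear genes alone, a minimum of 100 counts, a 1.5-fold limit, all whole cells, and leaving out single cells or cells with other markers. The metabolomes were not analysed here. The single-gene values of 1 member are not reported here.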

Additional observations from a re-analysis of the deposited data

Results flagged for a closer look

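In 4 of 55 groups of per-cell sums that were examined, the highest cell stood apart from the rest of its group by Dixon's 95% limit, and chance alone flags about 1 in 20 groups. Lactic29 had a complex III mitochondrial sum (mt-Cytb) of 556 CPM and a complex V mitochondrial sum of 2008 CPM, against medians of 242 and 799 CPM in the 8 Lactic cells, and it is also a cell with fibroblast markers. Lactic31 had a nuclear complex IV sum of 2263 CPM, against a median of 1081 CPM. W20 of the lactate group in the AZD3965 experiment had a complex I mitochondrial sum of 5903 CPM, against a median of 2780.2 CPM in its 5 cells. What sets these cells apart was not tested.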

How the results depend on the processing

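No paired analysis was possible because cell numbers are only names and the results come from no test. The log2 ratio of Lactic over CTL was -0.19 for the nuclear sum and became -0.16 with the mean and -0.27 with the median of per-cell CPM, -0.11 with TMM and -0.11 without cells with other markers, and with 1 cell left out it ran from -0.24 to -0.15. The mitochondrial sum (-0.68) became -0.65, -0.56, -0.60 and -0.79 in the same order and ran from -0.96 to -0.45. With AZD3965 the nuclear sum (0.02) became 0.16 with the median, -0.14 with TMM and -0.051 without W14 and ran from -0.051 to 0.16, and the mitochondrial sum (-0.16) became -0.079 with the mean, 0.27 with the median, -0.32 with TMM and -0.27 without W14 and ran from -0.30 to 0.084. In the technique comparison the nuclear sum (0.15) became 0.21, 0.063 and 0.22 with the mean, the median and all whole cells and ran from -0.037 to 0.31, and the mitochondrial sum (-0.10) became -0.23 with the median and -0.26 with all whole cells and ran from -0.31 to 0.077. In whole cells the nuclear sum (0.18) became 0.14 with the mean, 0.28 with the median and 0.37 with TMM and ran from 0.016 to 0.36, and the mitochondrial sum (-0.35) became -0.19 with the median and -0.17 with TMM and ran from -0.51 to -0.14.

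The number of members past 2-fold was 6, 9, 4 and 2 in the 4 comparisons and 28, 24, 18 and 13 at a 1.5-fold limit. With AZD3965 it was 14 with the median of per-cell CPM and 1 with at least 100 counts, and in whole cells 4 with the median and 1 with TMM. With 1 cell left out it ran from 1 to 12, from 8 to 13, from 1 to 10 and from 1 to 13. Ndufa9 turned from 1.24 to -0.18 with the median of per-cell CPM in the AZD3965 experiment. By that median Sdha in Lactic over CTL was at 0.56 and mt-Atp6 at -0.69. Among values of single genes and complexes, 482 stayed inside their interval from read counting and 240 left it. Among the nuclear and mitochondrial sums and the counts of members, 84 kept their margin and 99 did not. For the sums this margin was the same kind of interval, and for the counts of members it was a 1.5-fold change. Such intervals leave out the spread over cells, so these tallies do not measure moves against that spread. TMM shifts every ratio by -0.16 in the AZD3965 experiment and by 0.19 in whole cells, so the directions of small nuclear sums depend on the scaling. The cause of these moves was not tested. Groups of 2 to 8 cells with no named animal limit every value, and the shallow AZD3965 cells limit genes of few counts most.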

Other observations

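A pair of cells of the lactate experiment lacked many members. CTL27 had counts for 68 of 94 members and for 3392 genes in all, the fewest of the 35 cells. It had no counts of Sdha, Sdhd, Uqcrfs1 or the core complex I subunits Ndufs1, Ndufs3, Ndufs7 and Ndufv1. Lactic31 had counts for 72 members and for 5010 genes. It had no counts of Sdhb or Sdhd, which left its complex II sum at 24.2 CPM, nor of the complex III subunits Uqcrc1, Uqcrc2 and Uqcrfs1, while its nuclear complex IV sum of 2263 CPM was the highest of the 16 cells in that experiment. Its mt-Co3 level was 1809.7 CPM and its Cox7a2l level 561 CPM, also the highest of these 16 cells. Other markers took 0.371% of the macrophage marker sum in CTL27 and 0.607% in Lactic31.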
